A study of Mus musculus with 2 samples.

Results

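The colony-stimulating factors and their receptors were examined in mouse marrow cells cultured with ID8 tumour cells. The group holds 10 genes, chosen by name: the ligand genes Csf1, Csf2 and Csf3, the receptor genes Csf1r, Csf2ra, Csf2rb and Csf3r, and the related receptor genes Kit, Flt3 and Il3ra. All 10 had at least 1 probe set whose only gene symbol was theirs, out of 18193 genes with such a probe set, and together they had 18 probe sets. Colony-stimulating factors are secreted proteins that drive the survival, growth and maturation of myeloid cells. M-CSF (from Csf1) acts on monocytes and macrophages through a receptor tyrosine kinase, whereas GM-CSF (Csf2) and G-CSF (Csf3) act through receptors that have no kinase of their own and signal through JAK kinases and STAT factors. In tumour-bearing mice, factors of this family are known for expanding immature myeloid cells in marrow and spleen.

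The study placed 2 samples on 1 Affymetrix array each. One was C57BL/6 femoral marrow cells kept for 4 days in the lower chamber of a 24-well transwell plate, 2000000 cells below 50000 tumour cells, in RPMI-1640 with 5% FBS (ID8-induced MDSC, for myeloid-derived suppressor cells). ID8, also spelled 1D8 in the labels, is a tumour line derived from the surface epithelium of the mouse ovary, and the title names its supernatant. The protocol names no added recombinant cytokine, and the factors that the tumour cells released were not measured. The other sample was C57BL/6 femoral marrow cells labelled as the control, with the same strain and serum. The labels give both samples the phenotype CD11b+Gr1+, and do not say how long the control was cultured, how many mice were used or whether cells were sorted.

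The control signals were not tied to their probe sets: they stood in 2 interleaved descending runs of 22626 and 22411 values, with 0 rises from row to row in either. The ID8-induced column, divided in the same way, had 10622 and 11804 rises. Every value below therefore comes from the ID8-induced array, no fold change was taken, and no gene is said to have risen or fallen. With 1 array there was no replicate error and no test. The values are MAS5 signals, the Affymetrix summary of a probe set's brightness on a linear scale. Each is given with its percentile, that is, the percentage of the 45037 probe sets that read lower. Signals of different probe sets also depend on how well each hybridises, so they place a probe set on the array and do not rank the transcripts. A floor at the 40th percentile (signal 68.8) stood in for a detection call, and passing it does not by itself show that a gene was expressed. Itgam, which encodes the CD11b of the label, read 2375 (percentile 97.4). Ly6g and Ly6c2, which encode Gr1 antigens, had no probe set of their own and were not analysed here.

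The receptor genes Csf1r, Csf2ra, Csf2rb and Csf3r each had a probe set above percentile 95 in ID8-induced MDSC, while Kit, Flt3 and Il3ra did not. Of the 6 ligand probe sets, 0 reached the 90th percentile. By definition 10% of all probe sets reach it, so 0 of 6 does not set the ligands apart. The dimmer probe set of Csf2ra (290.1, percentile 80.7) lay below the brightest of Csf1 (597, 89.6). Csf1 and Csf3 lay in the upper range of the array below percentile 90, and Csf2 lay below the floor. Of the 10 genes, 9 passed the floor, where 71.3% of all genes passed it, so that count does not set the group apart. At the 90th percentile (a signal of 619.8) or above were 4 of the 10, against 14.8% of all genes, and the same 4 were at the 95th (1276), against 7.29%. Of the 18 probe sets, 17 passed the floor, against 60% of all probe sets. The median percentile of the group was 82.0, and that of all genes was 61.4. These shares are a description of a group chosen by name and were not tested.

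**Figure D1:**
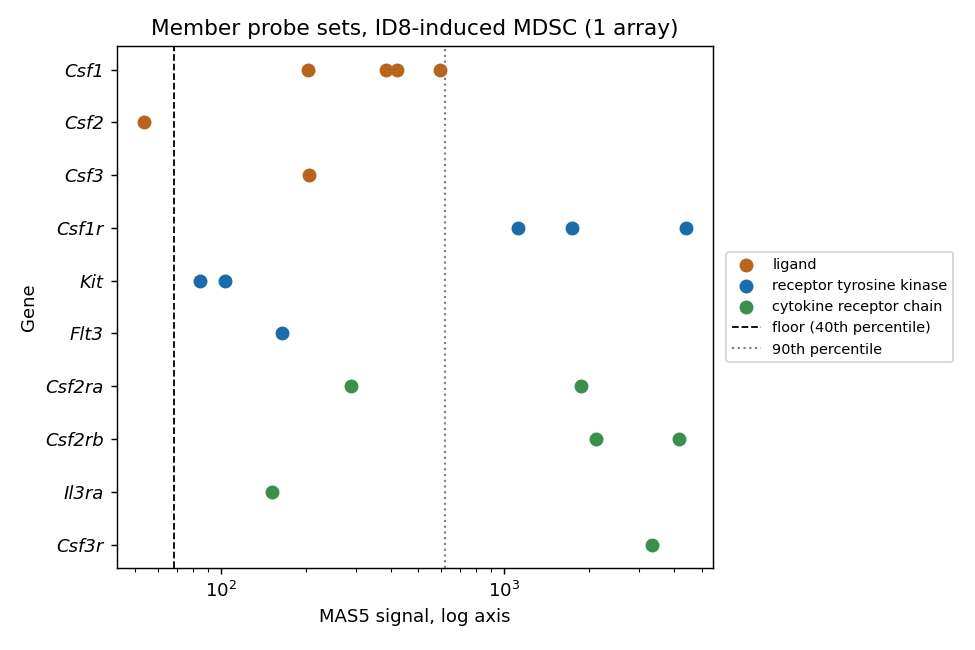
MAS5 signal (log axis) of each of the 18 probe sets of the 10 genes on the ID8-induced array, 1 point per probe set, coloured by role. The dashed line is the floor (68.8) and the dotted line the 90th percentile (619.8); Csf2 is the only point left of the floor, and 7 receptor points lie right of the dotted line.

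Among the ligands, Csf1, which encodes M-CSF, was read by 4 probe sets. Its signals were 597 (1460220_a_at, percentile 89.6), 422 (1448914_a_at, 86.0), 385 (1425154_a_at, 84.9) and 203 (1425155_x_at, 74.0). All 4 passed the floor, and none reached the 90th percentile. The brightest was 2.94 times the dimmest, where the median of that ratio over the 1093 genes with 4 probe sets was 5.25. The suffix of the dimmest marks a probe set whose probes can also match other transcripts, and the suffix of the other 3 marks probes shared by transcript variants of 1 gene.

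Csf3, which encodes G-CSF, the main growth factor of neutrophils, had 1 probe set (1419427_at) with a signal of 206 at percentile 74.3. Csf2, which encodes GM-CSF, also had 1 (1427429_at), at 53.5 and percentile 30.7. It was the only one of the 10 genes below the floor. It lay above a floor set at the 20th percentile (38.8). Neither value has a second probe set as a check, and the low signal is not a measure of absence.

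The receptor tyrosine kinases differed among themselves. Csf1r, the receptor of M-CSF, read 4403 (1419872_at, percentile 98.9), 1746 (1419873_s_at, 96.4) and 1126 (1423593_a_at, 94.3). All 3 of its probe sets lay above the 90th percentile. Their ratio of brightest to dimmest was 3.91, near the median of 3.48 over the 2366 genes with 3 probe sets. Kit, the receptor of stem cell factor and a mark of haematopoietic progenitors and mast cells, read 103 (1452514_a_at, percentile 55.1) and 84.6 (1415900_a_at, 47.9). Both of its probe sets passed the floor at the 40th percentile, and neither passed one at the 60th (120.0). Flt3, the receptor of Flt3 ligand on early progenitors and dendritic cell precursors, read 165 on its 1 probe set (1419538_at, percentile 69.0). In RNA of a whole culture, fewer cells of a type and less RNA per cell cannot be told apart, which applies to Kit and Flt3 and to every other gene here.

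The chains of the GM-CSF, IL-3 and G-CSF receptors belong to the cytokine receptor family. Csf2ra, the chain that binds GM-CSF, read 1877 (1420703_at, percentile 96.7) and 290.1 (1420704_at, 80.7). These 2 probe sets disagreed by a ratio of 6.47, and 87.6% of the 4695 genes with 2 probe sets had a lower ratio. By that ratio its signal was less settled than those of the other 4 genes with several probe sets. In percentile, Csf1 spread about as far, from 74.0 to 89.6. The 5 genes with 1 probe set have no such check. Both probe sets of Csf2ra nonetheless lay above percentile 80. Csf2rb, the signalling chain that the mouse receptors for GM-CSF, IL-3 and IL-5 share, read 4163 (1455660_at, percentile 98.8) and 2113 (1421326_at, 97.1). Its 2 probe sets agreed to within a ratio of 1.97, below the median of 2.12 for such genes. Csf3r, the G-CSF receptor, read 3346.5 on its 1 probe set (1418806_at, percentile 98.3). Il3ra, the chain specific to IL-3, read 152 (1419712_at, percentile 67.0). Of the 4 chains, 3 had a probe set above percentile 95, and the chain for IL-3 did not.

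**Figure D2:**
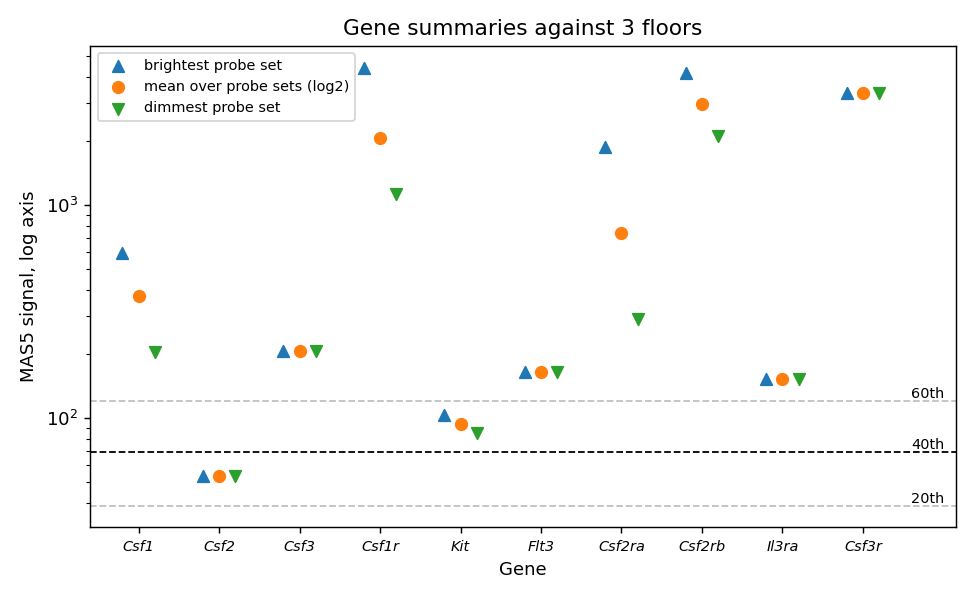
MAS5 signal (log axis) of each of the 10 genes as its brightest probe set, the mean over its probe sets on the log2 scale, and its dimmest probe set; the 3 symbols stand level for genes with 1 probe set. Dashed lines are floors at the 20th, 40th and 60th percentile; Kit lies between the upper pair, Csf2 between the lower pair, and the symbols lie farthest apart for Csf2ra.

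Mouse Csf2rb has a close relative, Csf2rb2, which encodes a second beta chain used by the IL-3 receptor and lies beside it in the annotation with 0 protein-coding genes between. The probe set of Csf2rb2 alone read 899 (percentile 93.0). A further probe set (1450200_s_at), which the platform assigns to both genes, read 537 (percentile 88.6) and was left out of the 18. Binding of one transcript to the probes of such a closely related gene was not tested, and the signals of Csf2rb are uncertain to that extent.

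Promoter sequence is shown for 2 of the strongly signalling receptors and for Kit, whose signal was low, because PU.1 and C/EBP factors are known regulators of myeloid receptor genes. Spi1, which encodes PU.1, read 1325 (percentile 95.2), and the C/EBP genes Cebpb and Cebpa read 10975 (99.8) and 209 (74.6). Cebpe had no probe set of its own and was not analysed here. The table of RefSeq starts on GRCm38.p6 held 7 of the 10 genes: Csf1, Csf2, Csf2ra, Csf3r, Flt3, Il3ra and Kit. The 250 bases before each start were searched on both strands for GAGGAA, the core of a PU.1 box, GCAAT, a C/EBP half-site, and TGTGGT, a RUNX core. The lines below run 5′ to 3′ on the gene's strand and end at the base before the start, with GAGGAA and GCAAT, or ATTGC for GCAAT on the other strand, in capitals. The Csf3r window is chr4:126024409-126024658 (+ strand), the Csf2ra window chr19:61228419-61228668 (- strand) and the Kit window, for the first of its listed starts, chr5:75574737-75574986 (+ strand).
Csf3r: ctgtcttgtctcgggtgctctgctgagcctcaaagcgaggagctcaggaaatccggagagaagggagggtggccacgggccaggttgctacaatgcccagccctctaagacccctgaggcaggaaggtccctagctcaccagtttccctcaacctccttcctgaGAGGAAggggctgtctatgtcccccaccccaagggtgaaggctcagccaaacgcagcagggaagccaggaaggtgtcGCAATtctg
Csf2ra: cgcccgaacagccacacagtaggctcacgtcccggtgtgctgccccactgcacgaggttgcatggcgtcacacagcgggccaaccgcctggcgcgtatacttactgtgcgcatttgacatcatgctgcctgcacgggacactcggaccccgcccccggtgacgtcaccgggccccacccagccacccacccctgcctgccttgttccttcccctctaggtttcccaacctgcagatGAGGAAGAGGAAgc
Kit: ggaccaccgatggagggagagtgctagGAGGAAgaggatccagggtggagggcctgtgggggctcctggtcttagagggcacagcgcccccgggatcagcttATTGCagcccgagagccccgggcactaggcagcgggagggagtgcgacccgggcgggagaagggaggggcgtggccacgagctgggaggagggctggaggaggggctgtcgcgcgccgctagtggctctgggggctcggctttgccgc

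In the Csf3r window GAGGAA began at -86 and GCAAT at -9, counted from the start. The Csf2ra window held GAGGAA at -14 and again at -8, as adjoining copies. Kit held GAGGAA at -223 and the reverse of GCAAT at -148. The 7 windows were 1 per gene, whereas the shares over all windows count every listed start, and a gene can have several. Among the 7 windows GAGGAA occurred in 3, those of Csf2ra, Csf3r and Kit, against 23.3% of all 32851 windows. GCAAT occurred in 3, those of Csf3r, Il3ra and Kit, against 23.1%. TGTGGT occurred in 0 of 7, against 14.0% of all windows. Among the receptor windows, GAGGAA was present in those of Csf2ra, Csf3r and Kit and absent from those of Flt3 and Il3ra. Csf1r and Csf2rb had no window. Whether the letters go with signal was not tested, and a match is not a bound site.

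Related ligands and receptors were described in the same way. Of 7 other ligand genes, 4 had a probe set of their own, of which 3 passed the floor (71.3% of all genes did) and 0 reached the 90th percentile (14.8% of all genes did). Kitl, which encodes stem cell factor, the ligand of Kit, read 103 on the brightest of 4 probe sets (percentile 55.0) and 11.3 on the dimmest. Il34, the other ligand of the M-CSF receptor, read 72.0 (41.8), Il5 read 87.1 (49.0), and Il3 read 29.3 (13.0). Csf2 and Il3, which neighbour each other with 0 protein-coding genes between, both lay below the floor. Flt3l, Epo and Thpo had no probe set of their own and were not analysed here. Of 5 measured other receptors, 2 passed the floor, Csf2rb2 and Epor (the erythropoietin receptor, 161, percentile 68.4).

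Csf1r and Kit adjoin other receptor tyrosine kinase genes. Pdgfrb, which adjoins Csf1r, read 55.2 on its brighter probe set (percentile 31.9) and lay below the floor, while all 3 probe sets of Csf1r lay above percentile 94. Pdgfra and Kdr adjoin Kit on either side. Pdgfra read 47.99 on its brightest (26.9) and Kdr 109.7 (57.2), beside 55.1 for the percentile of Kit. Il5ra, the IL-5 chain that pairs with the product of Csf2rb, read 53.2 (30.4). The partners of that shared chain thus lay at percentile 96.7 for Csf2ra on its brighter probe set, 67.0 for Il3ra and 30.4 for Il5ra.

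Genes that carry the signal of these receptors lay, on their brightest probe sets, mostly well above the floor. All 19 measured genes of a list of 25 proximal signalling genes passed it, where 71.3% of all genes did. Of these 19, 8 reached the 90th percentile, against 14.8% of all genes. Jak2, the kinase bound by Csf2rb, read 1643 on its brighter probe set (percentile 96.2), while Stat5a and Stat5b, which GM-CSF activates, read 250.1 (78.2) and 403 (85.4). Map2k1 (a MAP kinase kinase) read 4709 on its 1 probe set, and Jak1 read 3094 on its brightest and 608 on its dimmest. The lowest on their brightest probe sets were Pik3r1 at 183 and Sos1 at 166. On their dimmest these read 80.2 and 30.1, the latter below the floor. All 14 negative regulators passed the floor, and 8 were at the 90th percentile or above, beside the same shares of all genes. Ptpn6 (the phosphatase SHP-1, which restrains these receptors) read 2789 and Adam17, the protease that can shed the M-CSF receptor, 2667. Socs3, an inhibitor of G-CSF receptor signalling, read 2122 (97.1) and Cish, a STAT5 target, 944 (93.3), whereas Socs1 read 120.0 and Socs2 at most 111.7 (57.8). These lists share roles with other cytokine receptors, so their signals are not those of the colony-stimulating factor receptors alone.

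Genes known to respond to these receptors passed the floor in 11 of 11 cases, and 8 reached the 90th percentile, with a median percentile of 97.2. To set beside each count in this paragraph, 71.3% of all genes passed the floor and 14.8% reached the 90th percentile. The median percentile of all genes was 61.4. Pim1, a survival kinase induced through STAT5, read 9211, and Mcl1, a survival protein of neutrophils, 8663. Myc read 114.0 (percentile 58.4) and Spry2 134.9 (63.5). Transcription factors known at the receptor genes passed in 9 of 9 measured cases, with 2 at the 90th percentile or above. Ets2 read 4127 on its brightest probe set and 25.9 on its dimmest. Gata2 read 180.8 and Klf4 72.4 on the brighter probe set of each, and Klf4 read 61.8 on its dimmer, below the floor. For comparison, 9 of 9 measured genes among the other cytokine receptors passed the floor, with 6 at the 90th percentile or above and a median of 93.5. Il1r2 (the interleukin 1 decoy receptor) read 8703. At the lower end Il6st, the shared IL-6 receptor chain, read 162 on its brightest probe set and 36.4 on its dimmest. High signals were therefore found in other receptor families too.

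**Figure D3:**
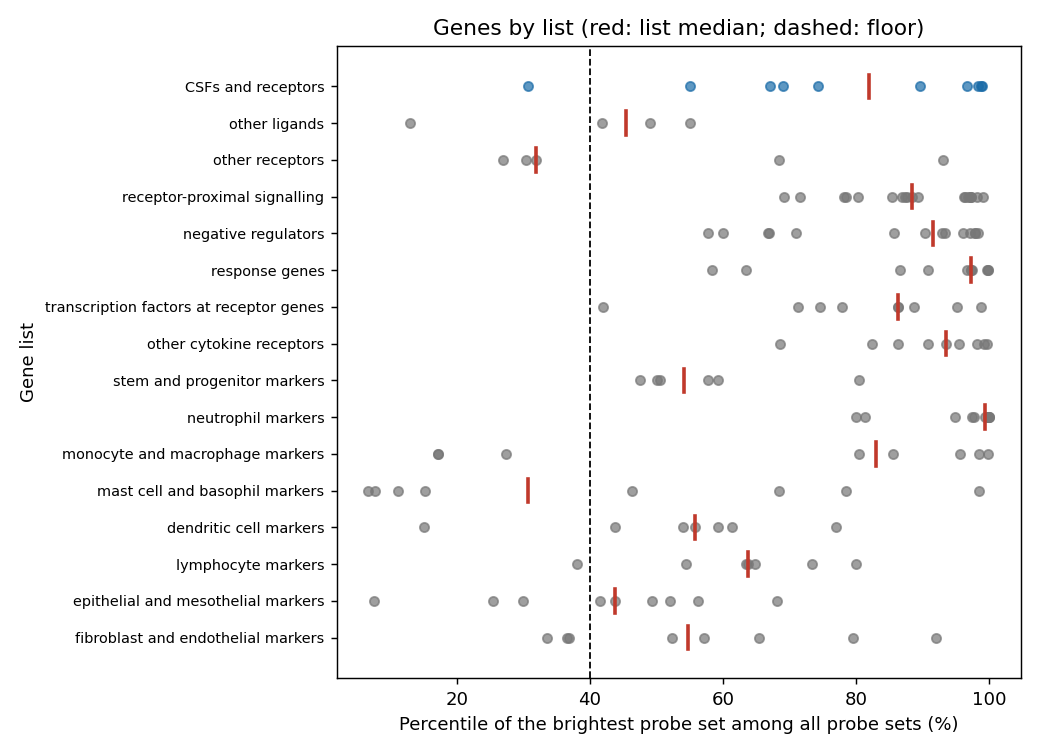
Percentile of the brightest probe set of each measured gene, 1 point per gene, for the 10 genes (blue) and the 15 context lists (grey); the red bar is the list median and the dashed line the floor. The points of the 10 genes spread from 30.7 to 98.9, and the response genes and neutrophil markers have the medians 97.2 and 99.4.

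Marker genes of the cells that bear these receptors were read on the same array. To set beside each count in this paragraph, 71.3% of all genes passed the floor and 14.8% reached the 90th percentile. The median percentile of all genes was 61.4. Neutrophil markers, beside Csf3r, passed the floor in 11 of 11 cases, from 278 for Mpo to 24857 for S100a9, with a median percentile of 99.4. Monocyte and macrophage markers, beside Csf1r, passed in 5 of 8, with Lyz2 at 10887, Cd68 at 3597 and Adgre1 at 1443. Also passing on their brightest probe sets were Cx3cr1 at 405 (72.5 on its dimmest) and Ccr2 at 286 (9.84 on its dimmest). C1qa and Mrc1, which mark tissue macrophages, lay below the floor at 35.0 and 35.1, as did Mertk at 48.6. Stem and progenitor markers, beside Kit and Flt3, passed in 6 of 6 on their brightest probe sets, from 83.6 to 285, and 0 reached the 90th percentile. With the mean over the probe sets of each gene 3 of 6 passed, and 1 of 6 passed a floor at the 60th percentile. Prom1 read 285 (percentile 80.4), Cd34 112.0 (57.8) and Slamf1 83.6 (47.5).

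Mast cell and basophil markers, which could also accompany Kit and Il3ra, passed in 4 of 8, where 71.3% of all genes passed. Those that passed were Hdc, a histamine-forming enzyme gene that other myeloid cells also use, at 3658, the basophil protease gene Mcpt8 at 254 (percentile 78.4), the mast cell tryptase gene Tpsb2 at 161 (68.4) and Ms4a2 at 81.0 (46.3). The dimmer probe set of Tpsb2 read 72.7, and that of Ms4a2 read 56.3, below the floor. Below the floor lay Cpa3 at 32.3, Mcpt4 at 26.9, Tpsab1 at 21.7 and Fcer1a at 20.2. Dendritic cell markers, beside Flt3, passed in 6 of 7 and ran from 32.2 for Xcr1 to 234 for Ccr7. Of these, 0 reached the 90th percentile, where 14.8% of all genes did. Lymphocyte markers passed in 6 of 7, near the 71.3% of all genes, with Cd4 the brightest at 277 on one probe set and 66.0 on the other. Markers of epithelium and mesothelium, the lineage of ID8 cells, passed in 6 of 9, also near the 71.3% of all genes. They ranged from 21.6 for Cdh1 to 159 for Epcam on the brighter of its probe sets, with 58.3 on the dimmer. Fibroblast and endothelial markers, from other cells able to make Csf1, passed in 5 of 8, beside the same share of all genes. Acta2 read 790.1 on its brightest probe set and 46.2 on its dimmest, and Dcn read 57.8. The part of any of these cells in the signals of the 10 genes was not tested. A likeness of pattern between genes could not be computed from 1 array.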

How the data were processed

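RNA from 2 samples was extracted with TRIzol, labelled with biotin from 6 ug of total RNA and hybridised to Affymetrix arrays, per the labels' protocols. The submitters' processing notes name MAS5; for its version, scaling target and detection calls, nothing is stated (not given in the sources used here). As deposited by the authors, each probe set has 1 linear signal intensity, and this was used without further scaling. The control column was not used for any gene because of its order.

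Gene names came from the platform annotation held by GEO. The 34945 probe sets with 1 symbol were used, and the 932 with several and 9160 without any were not. All 10 gene symbols matched the GRCm38.p6 gene table. A gene counted as above the floor by its brightest probe set, which favours genes with many probe sets. The written rule for named genes took from each context list the 3 highest and 2 lowest, plus Csf2rb2 and the other ligands. Not all are printed, and Ccr2, Cebpa, Cish, Cpa3, Cx3cr1, Itgam, Jak2, Kdr, Mcpt4, Mertk, Ms4a2, Socs3, Stat5a and Stat5b were added after their values were seen. Members and lists (15 lists, 154 symbols, 135 measured) were chosen with earlier results of these data known. Alternatives were other floors, the mean or dimmest of the probe sets, only those lacking a suffix letter, and those of several symbols. The computations were tested on simulated data. Python 3.11.15, numpy 2.4.6 and pandas 2.3.3 were used.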

Additional observations from a re-analysis of the deposited data

Results flagged for a closer look

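The highest signal of the control column, 26084, stood at the top of the table. The column was measured but describes no gene here, since its values fall down the list of probe sets.

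The probe set assigned to both Csf2rb2 and Csf2rb read 537 on the ID8-induced array, above the floor, and lies outside the 18 probe sets described.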

How the results depend on the processing

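No paired analysis was possible because each group held 1 array, and for the same reason no replicate could be left out. Of the 10 genes, 10 passed a floor at the 20th percentile and 8 at the 60th, where Csf2 and Kit failed. With probe sets without a suffix letter 7 of 8 passed, since Csf1 and Kit have none, and 9 of 10 such probe sets passed, against 17 of 18. With the mean over probe sets Csf1 read 375, Csf1r 2053 and Csf2ra 738. On the dimmest probe set Csf1 read 203, Csf1r 1126, Csf2ra 290.1 and Csf2rb 2113, all above the floor. Context counts that moved by over 1.5 times at the 60th percentile were other ligands (0 of 4), stem and progenitor (1 of 6), dendritic cell (2 of 7), epithelial and mesothelial (1 of 9) and fibroblast and endothelial markers (3 of 8). At the 20th percentile they were other receptors (5 of 5) and fibroblast and endothelial markers (8 of 8). With the mean over probe sets stem and progenitor markers moved to 3 of 6. With suffix-free probe sets other ligands moved from 3 of 4 to 1 of 3, and fibroblast and endothelial markers from 5 of 8 to 2 of 7. Epithelial and mesothelial markers went from 6 of 9 to 3 of 5, where the count fell but fewer genes were measured. The cause of these moves was not tested beyond the settings themselves. Precision is limited by the number of arrays, and signals near the floor, such as those of Csf2 and Kit, depend on where it is set.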
